A study of Lachancea kluyveri with 16 samples.

Results

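BIO3 (SAKL0H11528g) and THI13 (SAKL0G11968g) are genes of vitamin synthesis in the budding yeast *Lachancea kluyveri*, named here after their orthologs in *Saccharomyces cerevisiae*. They were selected on their strain effects in these same arrays, so all differences between strains given for these genes are descriptions and carry no test. Each gene has 2 probes, so the pair makes up 2 of 5316 genes and 4 of 10620 gene probes on the array. Transcript levels were measured on 16 single-colour Agilent arrays, 1 per culture. In the SEF1-VP16 strain (MATa ura3 SEF1-VP16::FRT), the transcription factor Sef1 ends in the VP16 activation domain, of viral origin, which makes it a gain-of-function form. Which isolate of it was hybridised is not given in the sources used here. The wild type (WT, JYL1897) is MATa ura3, and all 4 groups share the ura3 allele. Each strain was grown in media labelled YPGly (rich medium with glycerol) and YPD (the same with glucose), for 5.5 h at 30 °C after dilution of an overnight culture kept at 28 °C to an OD600 of 0.2 per ml, and each strain and labelled medium had 4 cultures.

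Biotin and thiamine are cofactors that yeasts either import or make. In *S. cerevisiae*, Bio3 (DAPA aminotransferase), Bio4 (dethiobiotin synthetase) and Bio2 (biotin synthase, an iron-sulphur enzyme) carry out the last steps of biotin synthesis, and the finished cofactor is attached to carboxylases such as acetyl-CoA carboxylase and pyruvate carboxylase. Thi13 belongs to a family of *S. cerevisiae* proteins that form the pyrimidine moiety of thiamine, whereas Thi4 forms the thiazole moiety. Thiamine is used as thiamine diphosphate by ketoglutarate dehydrogenase, pyruvate dehydrogenase, acetolactate synthase and transketolase, and in *S. cerevisiae* the genes for its synthesis are induced when thiamine is scarce.

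The labels of the media need care. Of 9 genes for the use of non-fermentable carbon, 7 were called lower and 1 higher on arrays labelled YPGly than on those labelled YPD, with average medium effects between −6.68 and 3.25 on the log2 scale. The media are therefore given as labelled throughout, and which strain effect belongs to glycerol and which to glucose rests on those labels. A comparison of the labels with the paper's own lists of strain changes in each medium is not given here. All arrays labelled YPGly lay on 1 slide and all labelled YPD on another, and the strains lay in different rows of each slide, so slide cannot be told apart from medium, nor row from strain. SEF1 itself (SAKL0F12342g) differed in SEF1-VP16 relative to WT by −0.36 (SE 0.10, limma adjusted p = 0.0446) where labelled YPGly. Where labelled YPD it differed by −0.39 (SE 0.10, limma adjusted p = 0.0338). Both values passed the adjusted p but lay below the 1.5-fold threshold. Values below are log2 processed signals after subtraction of each array's 75th percentile, so they are relative to the other genes of the same array and do not show a change in total RNA per cell. Calls required an adjusted p of at most 0.05 (limma, Benjamini-Hochberg over 5267 genes) together with a change of at least 1.5-fold.

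BIO3 stood at the lowest level in SEF1-VP16 cells labelled YPGly and at the highest in SEF1-VP16 cells labelled YPD, with both WT groups between. On its brighter probe (probe 1), SEF1-VP16 cultures labelled YPGly had values of −3.14, −2.89, −3.01 and −3.07. WT cultures labelled YPGly had −2.34, −2.56, −2.32 and −2.37. All SEF1-VP16 cultures lay below all WT cultures, with a gap of 0.33 between the groups. For BIO3 and THI13 such separation follows largely from their selection on strain effects. The share of all genes with separate strain groups is not given here. Where labelled YPD, the SEF1-VP16 cultures had −0.32, −0.51, −0.33 and −1.08. The WT cultures labelled YPD had −1.77, −1.84, −1.90 and −1.92. Here the order was the opposite, with every SEF1-VP16 culture above every WT culture and a gap of 0.68.

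The mean of BIO3 probe 1 was −3.03 ± 0.11 in SEF1-VP16 and −2.40 ± 0.11 in WT where labelled YPGly (SD, n = 4 each), a difference of −0.63 (SE 0.13) or 1.54-fold lower in SEF1-VP16. Where labelled YPD it was −0.56 ± 0.36 in SEF1-VP16 and −1.86 ± 0.07 in WT, a difference of 1.30 (SE 0.13) or 2.46-fold higher. Averaged over both media, which does not depend on how the media were labelled, the strain effect was 0.34 (SE 0.10), because the differences had opposite signs. The strain effect labelled YPGly minus that labelled YPD was −1.93 (SE 0.19). By absolute size this was number 3 of 5267 genes, and it was among the values used to select the gene. Over all genes, 2.30% were called for the strain effect labelled YPGly, 2.13% for that labelled YPD and 1.14% for the difference between them, and nothing is read from these shares for the selected genes.

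The dimmer BIO3 probe (probe 2) gave the same order of groups. SEF1-VP16 cultures labelled YPGly had −3.61, −3.32, −3.38 and −3.37, and WT cultures −2.68, −3.05, −2.75 and −2.81. SEF1-VP16 cultures labelled YPD had −0.63, −0.67, −0.67 and −1.35, and WT cultures −2.19, −2.35, −3.01 and −1.86. The strain groups again did not overlap in either medium, but the WT groups of the different media did, since WT YPD replicate 3 lay as low as the WT cultures labelled YPGly on this probe only. The strain effects of probe 2 were −0.60 (SE 0.20) where labelled YPGly and 1.52 (SE 0.20) where labelled YPD. SEF1-VP16 YPD replicate 4 was the lowest of its group on both probes, and without that array the strain effect of probe 1 labelled YPD was 1.47.

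THI13 was lower in SEF1-VP16 than in WT in both labelled media, more so where labelled YPD. On its brighter probe (probe 2), SEF1-VP16 cultures labelled YPGly had −1.03, −0.97, −1.36 and −1.17. WT cultures labelled YPGly had −0.74, −0.61, −0.49 and −0.48. The groups were separated by 0.23. SEF1-VP16 cultures labelled YPD had −1.77, −1.69, −1.82 and −2.05. WT cultures labelled YPD had −0.40, −0.75, −0.99 and −0.93. This is the wider gap, at 0.71, and the SEF1-VP16 cultures labelled YPD are the lowest of all 16.

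The mean of THI13 probe 2 was −1.13 ± 0.17 in SEF1-VP16 and −0.58 ± 0.12 in WT where labelled YPGly (SD, n = 4 each), a difference of −0.55 (SE 0.13) or 1.46-fold lower in SEF1-VP16. Where labelled YPD it was −1.83 ± 0.15 in SEF1-VP16 and −0.77 ± 0.26 in WT, a difference of −1.07 (SE 0.13) or 2.10-fold lower. The average strain effect was −0.81 (SE 0.09), and the difference between the strain effects was 0.52 (SE 0.18). In ascending order the groups were SEF1-VP16 YPD, SEF1-VP16 YPGly, WT YPD and WT YPGly. The middle pair overlapped slightly, the SEF1-VP16 YPGly culture at −0.97 lying above the WT YPD culture at −0.99, and the WT groups overlapped too.

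The dimmer THI13 probe (probe 1) had group means of −1.30 ± 0.10 in SEF1-VP16 and −0.84 ± 0.15 in WT where labelled YPGly, and of −2.10 ± 0.14 in SEF1-VP16 and −1.16 ± 0.19 in WT where labelled YPD (SD, n = 4 each). Its strain effects were −0.46 (SE 0.11) and −0.94 (SE 0.11). The strain groups did not overlap on this probe in either medium.

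**Figure D1:**
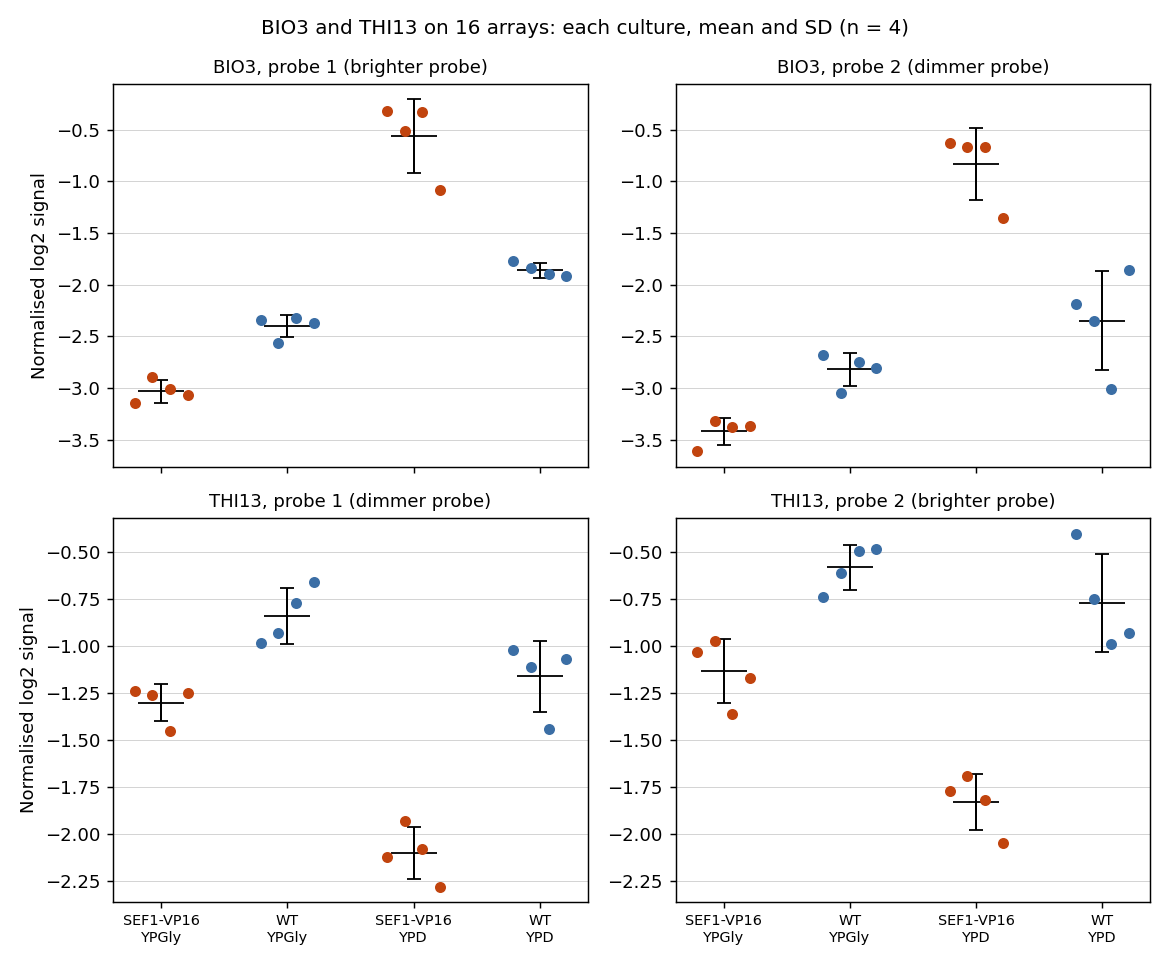
Normalised log2 signal (relative to the 75th percentile of each array, vertical axis) of both probes of BIO3 (top) and THI13 (bottom) in the 4 groups (horizontal axis). Each point is 1 culture, replicates 1 to 4 left to right, with the mean and SD of the group in black. SEF1-VP16 cultures (orange) lie below WT cultures (blue) in every panel except for BIO3 where labelled YPD, where they lie above them.

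Both genes gave clear signals. The processed signal was between 1477 and 12260 units for BIO3 probe 1 and between 3636 and 17170 units for THI13 probe 2, each well above background on all 16 arrays. No value of the 4 probes was marked as an outlier or saturated. The error that the extraction software gives for a spot was 10.0% to 10.2% of the signal at every signal level, so it tells little about these genes. The residual SD between cultures was 0.20 for BIO3 and 0.19 for THI13 on the brighter probes, against a median of 0.172 over 5267 genes. On the dimmer BIO3 probe the SD in WT labelled YPD was 0.48, against 0.07 on the brighter one. The other groups of BIO3 had similar SDs on both probes.

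The average difference between the labelled media was not used to select the genes and was tested. BIO3 was 2.84-fold lower where labelled YPGly than where labelled YPD, averaged over the strains (log2 difference −1.51, SE 0.10, limma adjusted p = 2.82e-10). THI13 was 1.36-fold higher (0.44, SE 0.09, limma adjusted p = 0.000282), which passed the adjusted p but not the 1.5-fold threshold. Such differences were common, since 47.0% of all genes were called in this comparison, and the median over all genes was 0.13. Within SEF1-VP16 the medium effect of BIO3 was −2.47 (SE 0.13) and within WT −0.54 (SE 0.13). For THI13 it was 0.70 (SE 0.13) within SEF1-VP16 and 0.18 (SE 0.13) within WT. These within-strain values share their arrays with the strain effects above and were not tested.

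The other genes of biotin use and synthesis in the list drawn up for comparison numbered 8. On the brighter probes limma called none for either strain effect or for the difference between the strain effects, although 4, 3 and 3 had an unadjusted p below 0.05 in the comparisons labelled YPGly, labelled YPD and between them. The gene-by-gene test named in the study's methods, with the same fold threshold, called 1 of the 8 labelled YPGly, both unadjusted and after Benjamini-Hochberg adjustment, and 0 labelled YPD. For all genes, the share with an unadjusted p below 0.05 is not given here, nor is the share that this test called. No excess in the list is therefore read from these counts. The medians of the list were −0.23 labelled YPGly and −0.15 labelled YPD, against 0.01 and 0.02 over all genes.

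BIO4 (SAKL0H11506g), whose locus tag comes directly before that of BIO3 among genes with a probe, was the list member with the profile most like that of BIO3. SEF1-VP16 cultures labelled YPGly had −3.54, −3.48, −3.32 and −3.59, and WT cultures −3.05, −2.98, −3.24 and −3.27. SEF1-VP16 cultures labelled YPD had −0.92, −0.88, −0.80 and −1.52, and WT cultures −1.61, −1.21, −1.37 and −1.88. The groups were separate where labelled YPGly and overlapped where labelled YPD, where SEF1-VP16 YPD replicate 4 was low as it was for BIO3. The strain effects were −0.35 (SE 0.16, limma adjusted p = 0.216) labelled YPGly and 0.49 (SE 0.16, adjusted p = 0.0876) labelled YPD. Their difference was −0.84 (SE 0.22, adjusted p = 0.0809). Without SEF1-VP16 YPD replicate 4 the effect labelled YPD was 0.65 (adjusted p = 0.00996) and the difference −1 (adjusted p = 0.0123), both past the thresholds. Leaving out WT YPD replicate 2 likewise took both past them, at 0.59 (adjusted p = 0.0445) and −0.94 (adjusted p = 0.0491).

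BIO2 (SAKL0C06182g), for the last step, had strain effects of −0.24 (SE 0.11) labelled YPGly and −0.19 (SE 0.11) labelled YPD, neither past the threshold. The second BIO3 ortholog (SAKL0H09504g) differed by −0.79 (SE 0.31, limma adjusted p = 0.143) labelled YPGly and by −0.32 (SE 0.31, adjusted p = 0.577) labelled YPD. This locus was weak even on the brighter probe, with group means between −5.16 and −4.37. Its SD in SEF1-VP16 labelled YPD was 0.85, and as few as 3 arrays of a group were well above background. The calls listed here for this locus therefore rest on weak signal. The dimmer probe of this locus gave −1.44 (adjusted p = 0.00447) labelled YPGly, past the threshold, and 0.59 labelled YPD, so its probes disagreed in sign there. The difference between the strain effects was called on the dimmer probe too, at −2.04 (limma adjusted p = 0.0105), against −0.47 (adjusted p = 0.693) on the brighter one. It was the 1 list member called by the methods' test labelled YPGly, and limma called it without SEF1-VP16 YPD replicate 1 (−0.79, adjusted p = 0.037) and in a fit to the 8 arrays labelled YPGly (−0.79, adjusted p = 0.00439). VHR1 (SAKL0F08734g), which in *S. cerevisiae* encodes an activator of genes for biotin uptake, differed by 0.06 (SE 0.11) labelled YPGly and 0.11 (SE 0.11) labelled YPD. BPL1 (SAKL0F10494g), for the ligase that attaches biotin, differed by 0.04 (SE 0.09) and −0.11 (SE 0.09) in the same order.

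Among the biotin-dependent enzymes, PYC1 (SAKL0A07128g, pyruvate carboxylase) had a strain effect of −0.46 (SE 0.11, limma adjusted p = 0.019) labelled YPD, under the 1.5-fold threshold, and of 0.00 (SE 0.11) labelled YPGly. ACC1 (SAKL0A02046g, acetyl-CoA carboxylase) differed by −0.27 (SE 0.10) labelled YPGly and −0.29 (SE 0.10) labelled YPD. DUR1,2 (SAKL0H10560g, urea amidolyase) differed by −0.21 (SE 0.14) and 0.21 (SE 0.14) in the same order. None of these enzymes had a strain effect of the size of that of BIO3 labelled YPD. BIO3 was selected on its strain effects, so nothing is read from this comparison.

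Between the labelled media, 4 of the 8 biotin genes were called higher and 2 lower where labelled YPGly, with a median of 0.70, in a comparison that called 47.0% of all genes with a median of 0.13. Nothing particular to the list is read from this count. BIO4 fell by 2.04 on the log2 scale (SE 0.11, limma adjusted p = 5.05e-11), together with ACC1, which fell by 0.89 (SE 0.07). DUR1,2 rose by 3.36 (SE 0.10), BIO2 by 1.38 (SE 0.08), PYC1 by 1.28 (SE 0.08) and BPL1 by 0.89 (SE 0.06). VHR1, at 0.52 (SE 0.08), was under the fold threshold on its brighter probe, and its dimmer probe gave 2.23, which was called. BIO3 and BIO4 thus moved in the direction opposite to that of BIO2 between the media.

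Of 16 other genes of thiamine synthesis, uptake, regulation and use, 2 were called higher and 0 lower in SEF1-VP16 where labelled YPGly. Where labelled YPD, 1 was called higher and 0 lower. Over all 5267 genes tested, 2.30% and 2.13% were called in either direction, in the same order. None of the list members called makes thiamine. KGD1 (SAKL0E08866g), for the thiamine diphosphate-dependent subunit of ketoglutarate dehydrogenase in the TCA cycle, rose by 1.23 (SE 0.11, limma adjusted p = 3.89e-06) labelled YPGly and by 1.22 (SE 0.11, adjusted p = 2.56e-06) labelled YPD. Its SEF1-VP16 cultures lay between 2.87 and 3.01 and its WT cultures between 1.64 and 1.86 where labelled YPGly. Where labelled YPD they lay between 3.21 and 3.71 in SEF1-VP16 and between 2.06 and 2.40 in WT, so the groups did not overlap.

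THI73 (SAKL0G12166g), for a putative transporter regulated by thiamine in *S. cerevisiae*, rose by 0.70 (SE 0.13, limma adjusted p = 0.00563) labelled YPGly. The SEF1-VP16 cultures labelled YPGly had −2.91, −3.06, −2.87 and −2.75, and the WT cultures −3.43, −3.80, −3.73 and −3.43. Where labelled YPD it differed by 0.12 (SE 0.13, adjusted p = 0.63). The difference between these strain effects was 0.57 (SE 0.19, adjusted p = 0.159), so it was not past the threshold, except without SEF1-VP16 YPD replicate 4 (0.70, adjusted p = 0.034).

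The genes nearest to THI13 in function had small strain effects. THI4 (SAKL0G13398g), for the enzyme that makes the thiazole moiety, differed by −0.14 (SE 0.12) labelled YPGly and −0.02 (SE 0.12) labelled YPD. THI20 (SAKL0C07634g), for a kinase of the pyrimidine moiety, differed by 0.06 (SE 0.14) and −0.30 (SE 0.13) in the same order. The transporter gene THI7 is represented by SAKL0B12584g, with −0.11 (SE 0.21) and −0.19 (SE 0.21), and by SAKL0H13354g, with 0.35 (SE 0.19) and −0.19 (SE 0.19). PHO3 (SAKL0G17028g), for a phosphatase that frees thiamine from its phosphates in *S. cerevisiae*, had −0.15 (SE 0.15) and 0.09 (SE 0.15). None of these values passed the threshold.

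The regulators differed little between the strains too. THI2 (SAKL0A06072g), an activator of thiamine genes in *S. cerevisiae*, had strain effects of 0.11 (SE 0.11) labelled YPGly and 0.04 (SE 0.11) labelled YPD. PDC2 (SAKL0H18414g), which acts with it there, had 0.32 (SE 0.17) and 0.11 (SE 0.17). The loci named THI3, after the *S. cerevisiae* thiamine sensor, had −0.11 (SE 0.08) and −0.08 (SE 0.08) for SAKL0E04972g, and 0.09 (SE 0.22) and −0.31 (SE 0.22) for SAKL0D00220g. The remaining list members were THI74, PET18 and the genes for thiamine diphosphate enzymes PDB1, ILV2 and TKL2. Of these ILV2 (SAKL0E03740g, acetolactate synthase) was the 1 gene of the 16 called for the difference between the strain effects, beside 1.14% of all genes. Its value was 0.61 (SE 0.10, limma adjusted p = 0.00816). SEF1-VP16 cultures of ILV2 lay between 1.56 and 1.67 and WT cultures between 1.32 and 1.49 where labelled YPGly, and between 1.28 and 1.48 in SEF1-VP16 and between 1.72 and 1.87 in WT where labelled YPD. Its call was lost without WT YPGly replicate 1 (0.57), SEF1-VP16 YPD replicate 1 (0.57) or WT YPD replicate 4 (0.58), in each case because the value fell under the fold threshold. Its dimmer probe gave 0.56 and quantile normalisation 0.55, neither of which passed.

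**Figure D2:**
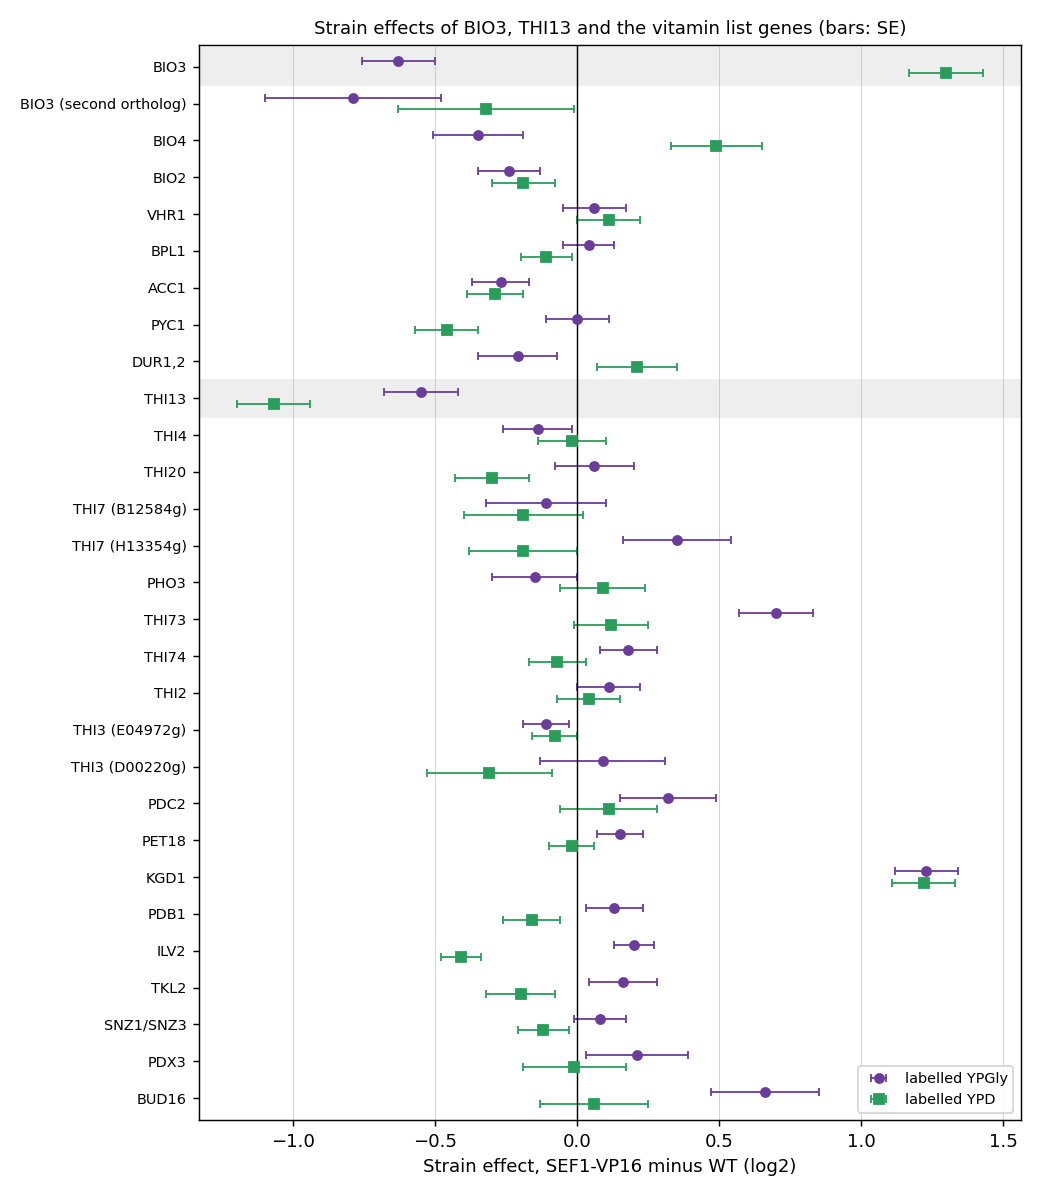
Strain effect, SEF1-VP16 minus WT on the log2 scale (horizontal axis), of BIO3, THI13 (shaded) and 27 genes of biotin, thiamine and vitamin B6 (rows), for arrays labelled YPGly (circles) and YPD (squares). Bars are standard errors. BIO3 lies at −0.63 and 1.30 and THI13 at −0.55 and −1.07, while KGD1 lies at 1.23 and 1.22 and most list genes lie close to 0.

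Between the labelled media, 4 of the 16 thiamine genes were called higher and 3 lower where labelled YPGly, with a median of 0.01. This is a share close to the 47.0% called over all genes. PHO3 rose by 2.74 (SE 0.10), SAKL0H13354g by 1.87 (SE 0.14), PDC2 by 0.66 (SE 0.12) and THI20 by 0.63 (SE 0.10). SAKL0B12584g fell by 1.73 (SE 0.15), THI4 by 1.27 (SE 0.09) and THI74 by 0.74 (SE 0.07). The loci named THI7 thus moved in opposite directions. Both were weak where they were lower, though well above background on all arrays. Their lowest group means were −5.93 (SAKL0B12584g, SEF1-VP16 labelled YPGly) and −5.22 (SAKL0H13354g, SEF1-VP16 labelled YPD). THI13, at 0.44 and under the fold threshold, had the sign opposite to that of THI4. The call of THI20 was lost without WT YPD replicate 4 (0.56) and under median centring (0.53), and that of PDC2 under quantile normalisation and median centring (0.57 with each). The dimmer probe of SAKL0B12584g gave −4.03 in place of −1.73, and normexp background correction −1.22. The size of its change thus depended on the probe and on the background correction.

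Vitamin B6 was included because pyridoxal phosphate is the cofactor of the Bio3 enzyme and a substrate for the Thi13 family in *S. cerevisiae*. All 3 genes of this list were called higher where labelled YPGly, beside 47.0% of all genes called in either direction. SNZ1/SNZ3 (SAKL0E03168g), for pyridoxal phosphate synthesis, rose by 2.26 (SE 0.06), BUD16 (SAKL0D11506g), for a putative pyridoxal kinase, by 1.42 (SE 0.13) and PDX3 (SAKL0D04400g), for pyridoxine phosphate oxidase, by 0.62 (SE 0.13). The dimmer probe of BUD16 gave a medium effect of 2.82, and a strain effect labelled YPD of 1.02 against 0.06 on the brighter one, so its sizes depended on the probe. The call of PDX3 was lost without WT YPGly replicate 1 (0.58), 2 (0.57) or 4 (0.58), without WT YPD replicate 4 (0.57) and under median centring (0.53). For the strain effects 0 of 3 were called with limma in either medium, with 1 and 0 at an unadjusted p below 0.05 where labelled YPGly and YPD. As for the biotin list, no share of all genes at that cut-off is given, so no excess is read from these counts. The methods' test called 1 of 3 where labelled YPGly, which was BUD16 at 0.66 (SE 0.19, limma adjusted p = 0.0505). limma called it too without WT YPGly replicate 4 (0.73), without SEF1-VP16 YPD replicate 1 or 4, and without any 1 of the WT YPD cultures (0.66 in each case). Quantile normalisation (0.65), normexp background correction (0.67) and a fit to the 8 arrays of that medium (0.66) called it as well.

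**Figure D3:**
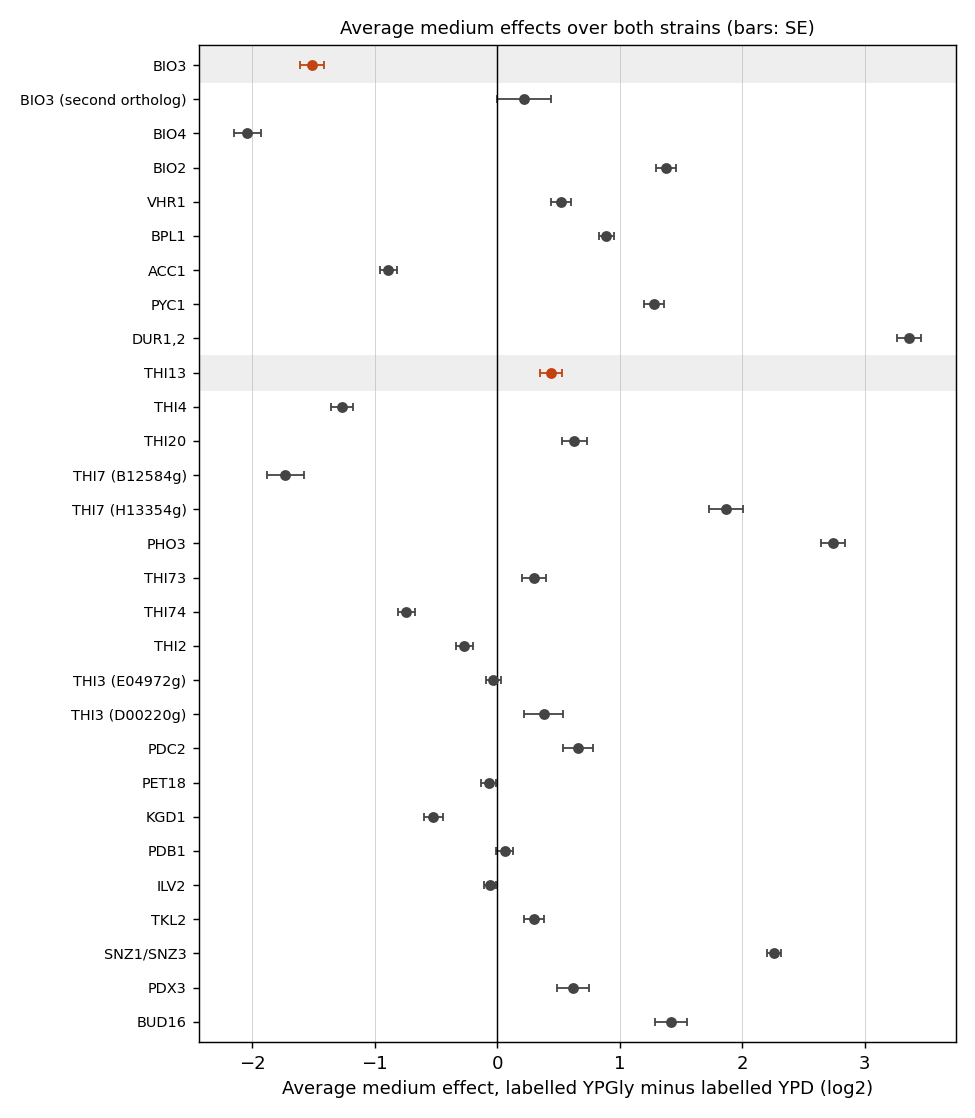
Average medium effect over both strains, labelled YPGly minus labelled YPD on the log2 scale (horizontal axis), of BIO3, THI13 (orange, shaded) and the 27 list genes (rows). Bars are standard errors. BIO3 at −1.51 and BIO4 at −2.04 lie on the same side, opposite to BIO2 at 1.38.

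Genes were also ranked by how closely their profile followed that of BIO3 or THI13, by the root mean square (RMS) difference over 16 arrays between log2 profiles centred on their own means. These profiles include the differences between strains. Likeness of the strain effects among the closest genes therefore follows from the ranking and is not separate evidence. For BIO3 the closest were SAKL0A10538g (0.28), SRL4 (SAKL0E05500g, 0.30), SAKL0E11880g (0.37), SAKL0F09746g (0.40) and SAKL0E04807g (0.40), against a median of 1.01 over 5266 genes. Where labelled YPD their strain effects lay between 0.45 and 0.86, below that of BIO3, which was selected on its strain effects. Where labelled YPGly their strain effects lay between −0.50 and 0.16. BIO4 was number 9 of 5266, at an RMS difference of 0.44. THI4 followed as number 58 (0.54), and the second BIO3 ortholog was number 3665 (1.17).

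For THI13 the closest were ARG5,6 (SAKL0F08888g, arginine synthesis, 0.26), SAKL0F05610g (0.26), GCV1 (SAKL0D04026g, a subunit of the glycine cleavage system, 0.27), FLR1 (SAKL0B12628g, a multidrug transporter, 0.27) and SAKL0A01628g (0.28), against a median of 0.61. Where labelled YPD their strain effects lay between −0.94 for FLR1 and −0.55 for GCV1. Where labelled YPGly they lay between −0.58 and 0.01. The list member nearest to THI13 was THI20, at number 121 (0.40), and THI4 was number 4636 (0.95). BIO3 was number 5012 in likeness to THI13, at an RMS difference of 1.30, so the selected genes had unlike profiles.

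**Figure D4:**
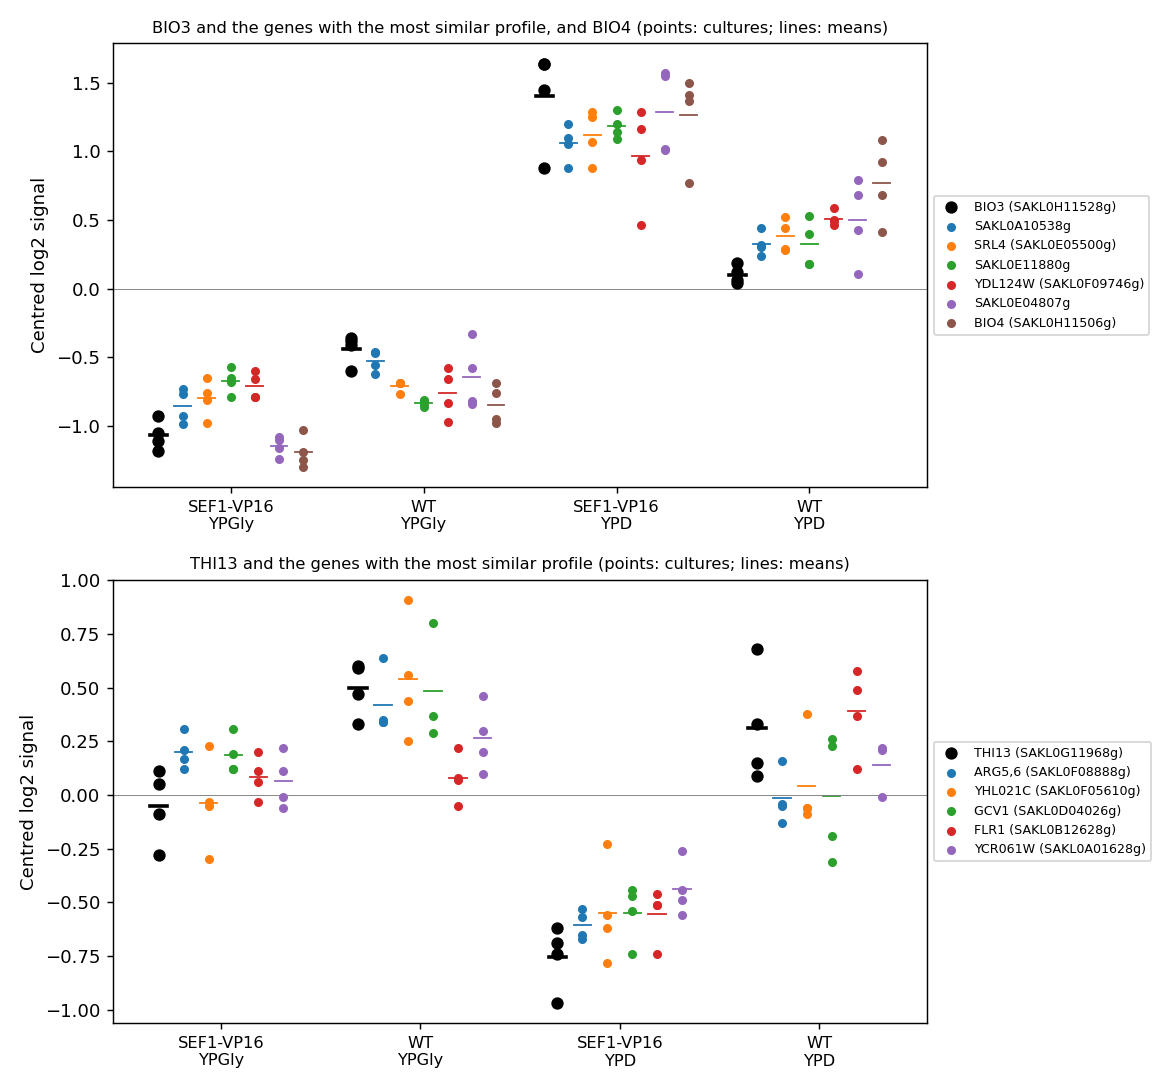
Log2 signals centred on each gene's own mean over 16 arrays (vertical axis) in the 4 groups (horizontal axis), for BIO3 with the 5 genes of most similar profile and BIO4 (top), and for THI13 with its 5 genes (bottom). Points are cultures and lines are group means. BIO3 and BIO4 are both low where labelled YPGly, and THI13 is lowest in SEF1-VP16 where labelled YPD.

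The 5 loci on either side of each gene, by order of locus tag among genes with a probe, were all tested. Around BIO3, 0 of 10 were called for a strain effect with limma, with effects between −0.35 and 0.32 where labelled YPGly and between −0.17 and 0.49 where labelled YPD, where the highest was BIO4. At an unadjusted p below 0.05 these counts were 5 and 2 of 10. Around THI13, 0 of 10 were called either, with effects between −0.34 and 0.61 and between −0.22 and 0.40, and 4 and 2 of 10 at an unadjusted p below 0.05. No share of all genes at that cut-off is given, so no excess around either gene is read from these counts. The methods' test with the fold threshold called 0 of these 20 loci in either medium, before and after adjustment. No neighbour of THI13 had a strain effect as low as that of THI13 in either medium, but THI13 was selected on its strain effects.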

How the data were processed

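The authors hybridised labelled cDNA to custom Agilent arrays and extracted the spots with Agilent Feature Extraction 10.5.1.1. The deposited scanner files give intensity values per spot, of which the processed signal, already corrected for background, was used here. The deposited value table gives log2 values of the same arrays, and was within 0.00746 of the values used here after scaling. Control spots were left out and 332 outlier values were set to missing. The log2 processed signal minus the 75th percentile of the 10620 gene probes was the normalised value. The brighter probe stood for each gene, and 5267 of 5316 genes were tested because each array of 1 or more groups measured that probe well above background. Arrays had 94.5% to 99.95% of gene probes well above background. That 4 arrays made up each group limits the precision. Whether cultures of a group were started independently is not stated in the labels. The study's methods call the samples of each strain and condition biological replicates. The p-values rest on the spread between these samples only.

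limma 3.58.1 in R 4.3.3 fitted 4 group means, with Benjamini-Hochberg adjustment over all genes tested. The fit was tested on simulated data with known changes. BIO3 and THI13, the gene lists and the rules for naming genes were chosen with earlier results of these data known. The text names BIO3, THI13, the list genes, the 5 genes of most similar profile, the 5 loci on either side, and SEF1. Gene names come from annotations in the study's supplementary material, some of which hold genes because they changed on these arrays, so the lists are incomplete. Alternatives were quantile normalisation, median centring, normexp correction with an offset of 50, the authors' value table, no filter, the dimmer probe, no fold threshold, the methods' t-test, only the 8 arrays of a medium, a replicate block, and leaving out each array. For normexp the median spot signal was used, since the files used here hold no mean signal.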

Additional observations from a re-analysis of the deposited data

Results flagged for a closer look

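Among 16 sets of 4 cultures (4 probes in 4 groups), 2 held a culture that stood apart from the others, and chance gives about 1 in 20. Both probes of a gene read the same cultures, so the sets are not independent and no excess is read from this count. For BIO3 probe 2, SEF1-VP16 YPD replicate 4 lay at −1.35, below the other cultures of its group at −0.63 to −0.67. For THI13 probe 1, SEF1-VP16 YPGly replicate 3 lay at −1.45, below the others at −1.24 to −1.26.

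On both probes of BIO3, every SEF1-VP16 culture lay below every WT culture where labelled YPGly and above every WT culture where labelled YPD. The strain effects of the brighter probe had opposite signs, with a difference of −1.93 between them. This difference was among the values used to select the gene, and was not tested. For ILV2 the strain effects also had opposite signs (0.20 labelled YPGly and −0.41 labelled YPD), and their difference of 0.61 passed the test for an interaction (limma adjusted p = 0.00816).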

How the results depend on the processing

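The signs of all strain, interaction and medium effects of BIO3 and THI13 were kept under every alternative run. The dimmer probe gave a strain effect of 1.52 for BIO3 labelled YPD. Without the fold threshold the medium effect of THI13 (0.44) passed. That setting also called 348 genes for the strain effect labelled YPGly, 281 labelled YPD and 4171 for the medium effect, and 3 list genes labelled YPD, fewer criteria being applied. The methods' t-test after adjustment called 25 genes labelled YPD, and a fit to the 8 arrays of that medium 57. Both versions of the t-test and the fit to 8 arrays called 4 list genes labelled YPGly. Quantile normalisation called 0 list genes for the interaction. Median centring lowered the median medium effect over all genes to 0.05, against 0.13, with THI13 at 0.36.

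Deviations of same-numbered cultures from their group means correlated with r from −0.55 to 0.765 over 24 pairs (median 0.133, against −0.0537 over 72 pairs of unlike number). The pairs of replicate 4 all had positive values (0.161 to 0.41), but those of the other numbers had both signs, so the numbers were not taken to pair the cultures. A fit with the replicate block called 2 list genes for the interaction (BIO4 at −0.84, adjusted p = 0.0225, was added), and 123, 114, 75 and 2472 genes for the strain effects labelled YPGly and YPD, the interaction and the medium effect. It changed no call for THI13 or BIO3 (medium effects 0.44 and −1.51).

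Leaving out single arrays gave ranges as follows. List genes called numbered 2 to 4 labelled YPGly, 1 to 2 labelled YPD and 0 to 3 for the interaction, and 26 (without WT YPGly replicate 2) to 98 (without WT YPD replicate 3) genes were called for the interaction. That count was also moved by leaving out SEF1-VP16 YPGly replicate 3 (34) or 4 (27), WT YPGly replicate 1 (31) or 3 (33), or SEF1-VP16 YPD replicate 3 (32) or 4 (96). BIO3 lay between −0.68 and −0.59 labelled YPGly and between 1.22 and 1.47 labelled YPD. THI13 lay between −0.60 and −0.47 and between −1.14 and −0.95. The cause of these shifts was not tested.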
